A study of Drosophila melanogaster with 28 samples.

Results

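More CLAMP peaks were called when MSL2 was in the same chromatin, and the sites gained are described here. With the CLAMP antibody, 74 peaks were called with CLAMP alone and 429 with MSL2 and CLAMP together. A peak of 1 list was taken as found in the other when they overlapped by at least 1 bp. By that rule 41 peaks were kept, 33 peaks of CLAMP alone were lost and 388 peaks were gained with MSL2. These 503 peaks are part of 2013 in the 9 lists of the series.

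Chromatin was built in vitro over 5 h on DNA purified from BG-3, an established Drosophila cell line of larval nervous tissue. CLAMP alone, or MSL2 with CLAMP, was left to bind for 30 min, and the chromatin was crosslinked and partly digested with MNase, a nuclease that cuts between nucleosomes. Each of these groups had 2 libraries, which the labels do not tie to separate assemblies, and 1 peak list made from their merged reads. Expression is not measured in such chromatin, so cell type markers cannot be checked. Values therefore carry exact 95% intervals that cover the counting of peaks only, and no replicate error or test between conditions exists.

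CLAMP carries zinc fingers with which it recognises GA-rich sequence at many places of the fly genome. MSL2 gives the dosage compensation complex of males its contact with specific DNA sites, and that complex gathers on X and raises its transcription. CLAMP is known to help that complex reach its entry sites on X, and MSL2 is known in turn to favour CLAMP there.

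The list with MSL2 was longer although it had fewer reads. It was called from 3875205 tags (mapped reads), against 8571204 without MSL2, which is 2.21-fold more. Peaks held 24303 tags with MSL2 and 5643 without, or 0.627% and 0.0658% of the total. The mean peak held 146 tags per 10000000 with MSL2 and 89.0 without, and the lowest tag number that passed the false discovery rate was 41.3 and 29.2 on the same scale. Of 9080 putative peaks with MSL2, 4.72% were called, and of 34051 without MSL2, 0.217%. Most of the others were removed by comparison with the shared negative control of the antibody, 8551 with MSL2 and 33873 without. A lost or gained peak thus passed every filter in 1 list only, which does not measure a change of signal at the site.

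The 41 kept peaks were 55.4% of the CLAMP-alone list (interval 43.4 to 67.0). Some of them, picked after their values were seen, lay in para, the voltage-gated sodium channel, and in Teh1, whose product modulates that channel (3R 9866192 to 9866342). Others lay in Hk, a potassium channel subunit, in nAChRalpha3 and nAChRbeta1, nicotinic receptor subunits, and in Dscam1, a cell recognition receptor (2R 7326853 to 7327003). Most channel and receptor genes of the lists below held no kept peak. By position, kept peaks on 2L lay in CG2839 (2L 626904 to 627054), Tmtc2 (2L 935509 to 935659) and Pvf3 (2L 7110786 to 7110936), among others. Outside gene bodies, one lay 3635 bp from psq, a GA-binding factor (2R 10554102 to 10554252). In 33 of the 41 kept peaks (80.5%, 65.1 to 91.2) the antibody to FLAG, an epitope tag, also found CLAMP, in chromatin with CLAMP and no MSL2.

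Lost peaks were mostly low in the deposited list and mostly on X. Of the first 37 CLAMP-alone peaks in file order, 29 were found with MSL2 (78.4%, 61.8 to 90.2), and of the last 37, 12 (32.4%, 18.0 to 49.8). The headers do not say what sets this order. X held 23 of the 31 lost peaks on chromosome arms (74.2%, 55.4 to 88.1), in a list whose second part was 83.8% X throughout. Lost peaks lay in inaE, a diacylglycerol lipase of photoreceptors, par-6, a cell polarity gene (X 17706691 to 17706841), CrebB, a cAMP-responsive factor (X 18374834 to 18374984), Vav, an exchange factor (X 19265340 to 19265490), and pyd, a junction protein gene (3R 8846784 to 8846934). The FLAG antibody found 7 of the 33 (21.2%, 8.98 to 38.9), and MSL2 in the mixture was called at 1 of them (3.03%, 0.0767 to 15.8). MSL2 alone was called at 0 of the 33, a limit of 9.09% (3 counts of the total). In 4 cases the nearest peak with MSL2 lay within 500 bp of the lost one: in CG2839, CG43902 and Tomosyn and at a Y site 9541 bp from Su(Ste):CR42422.

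The overlap rule divided close neighbours in few cases. The kept pair with the smallest overlap shared 11 bp, in Him (X 18210373 to 18210523 with MSL2 and X 18210513 to 18210663 without). The gained peak nearest to a CLAMP-alone peak lay 117 bp from it, in CG43902 (X 10170758 to 10170908), and the next ones 140 bp away in Tomosyn and 218 bp away in Pvf3, a growth factor gene. Only 5 of the 388 gained peaks lay within 500 bp of a CLAMP-alone peak, and the median distance was 385788 bp. Gained peaks were thus separate sites and not shifted copies of the earlier ones.

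Gained peaks were spread over all large arms and were densest on X. X held 200 of the 388 (51.5%, 46.4 to 56.6), where X is 17.6% of the arm length. This came to 8.50 gained peaks per Mb of X and 1.71 per Mb of autosome, a ratio of 4.98. The other arms held 45 on 2L, 47 on 2R, 55 on 3L and 41 on 3R, or 1.28 to 1.96 per Mb. Chromosome 4 and Y held 0 each, and 3 counts of the total, the limit for a 0, are 0.773%. Kept peaks had a similar X share, 22 of 40 arm peaks (55.0%, 38.5 to 70.7), so the gained sites were not richer in X than the kept sites, within these intervals. The whole CLAMP-alone list, lost peaks included, had 45 of its 71 arm peaks on X.

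**Figure D1:**
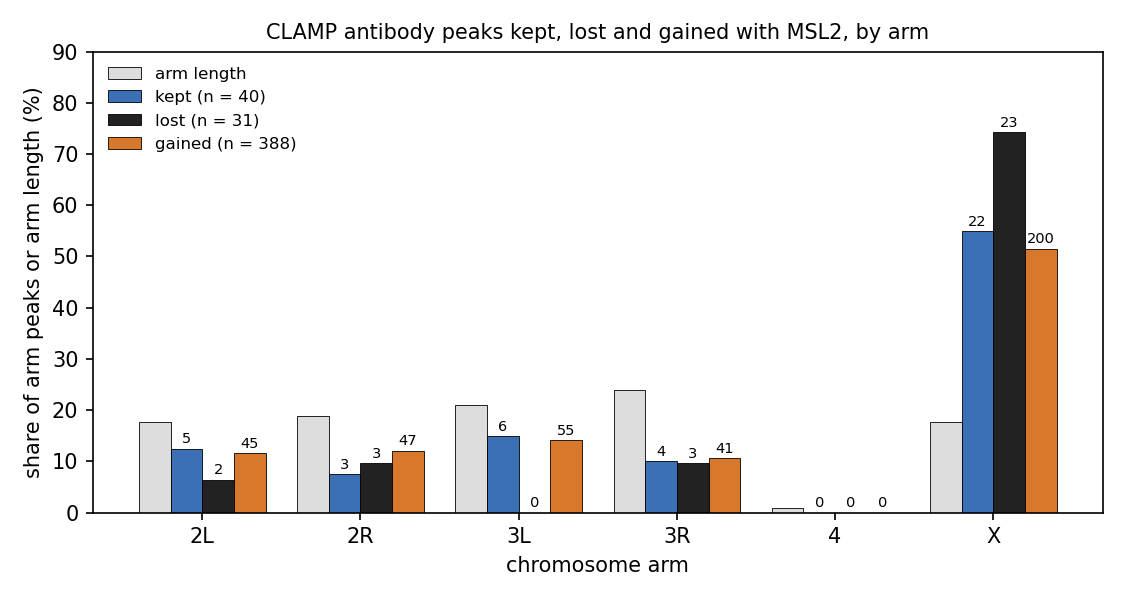
Share (%) of kept, lost and gained CLAMP antibody peaks on each chromosome arm, beside the share of arm length in grey; numbers over the bars are peak counts, and peaks on Y are left out. X holds 200 of 388 gained, 22 of 40 kept and 23 of 31 lost peaks, against 17.6% of the length.

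The gained sites fall into 4 classes by what other antibodies found there. One comparison list is CLAMP without MSL2 by the FLAG antibody (354 peaks, 2 libraries), and the other is MSL2 in the same mixture of MSL2 and CLAMP by the MSL2 antibody (466 peaks, 3 libraries). Neither shares a negative control with the CLAMP antibody. Of the gained peaks, 119 lay at FLAG CLAMP peaks (30.7%, 26.1 to 35.5), so the FLAG antibody had found CLAMP there without MSL2. MSL2 was called at 91 of the gained peaks (23.5%, 19.3 to 28.0), and at 17 of the 41 kept peaks (41.5%, 26.3 to 57.9). An MSL2 peak was thus not particular to the gained sites. Both lists held 35 of the gained sites, only the FLAG list 84, only the MSL2 list 56, and neither 213 (54.9%, 49.8 to 59.9). Away from every list made without MSL2, those of a CLAMP mutant whose change the labels do not give included, lay 266 gained peaks (68.6%, 63.7 to 73.1). The CLAMP-antibody list of the mutant shares the negative control with the gained list. The FLAG antibody also found the mutant, without MSL2, at 31 of the 35 sites of both lists (88.6%, 73.3 to 96.8) and at 53 of the 84 of the FLAG list only (63.1%, 51.9 to 73.4). It did so at 29 of the 41 kept peaks (70.7%, 54.5 to 83.9). Most FLAG sites here thus do not separate CLAMP from its mutant.

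Seen from the other lists, the gained peaks covered 33.6% of the FLAG CLAMP sites (119 of 354, 28.7 to 38.8). The CLAMP antibody had found 41 of these 354 without MSL2 (11.6%, 8.44 to 15.4), and found 152 with it (42.9%, 37.7 to 48.3). FLAG CLAMP sites on X and on autosomes were gained at nearly the same rate, 60 of 168 (35.7%, 28.5 to 43.5) and 59 of 175 (33.7%, 26.8 to 41.2). At FLAG CLAMP sites where MSL2 was also called in the mixture, 38 of 83 were gained (45.8%, 34.8 to 57.1), against 81 of 271 without an MSL2 peak (29.9%, 24.5 to 35.7). Those intervals overlap slightly.

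At the 35 sites found with both the FLAG and the MSL2 antibody, MSL2 was also called without CLAMP at 20 (57.1%, 39.4 to 73.7), in a list that shares its negative control with that of the mixture. Among the 20 were trh, a tracheal regulator (3L 378119 to 378269), bru2, of the bruno family of RNA-binding proteins (2L 12366202 to 12366352), ftz-f1, a nuclear receptor of metamorphosis (3L 18787973 to 18788123), and mtd (3R 5282938 to 5283088). On X they included norpA, the phospholipase C of phototransduction (X 4361606 to 4361756), rdgA, a diacylglycerol kinase of the same pathway (X 8924860 to 8925010), Neto, an auxiliary glutamate receptor subunit (X 13518010 to 13518160), and 2 peaks in the potassium channel gene eag (X 14971225 to 14971375 and X 14979086 to 14979236). Atg5, an autophagy gene (X 7321017 to 7321167), and disco-r, a zinc finger gene (X 16147663 to 16147813), were there too. The peaks in trh and in CG42699 (X 5788778 to 5788928) were in all 5 lists of the FLAG and MSL2 antibodies.

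These jointly found sites stood early in the deposited list. Of the 8 gained peaks that came first in it, 6 were of this class: trh, bru3, of the bruno family (3L 13629594 to 13629744), tei (2R 13629690 to 13629840), CG13739 (2R 9344015 to 9344165), mtd, and a site 3005 bp from a phenylalanine tRNA gene (3R 13794797 to 13794947). The other 2 lay in spok, an ecdysone synthesis gene (3R 3344854 to 3345004), also in the FLAG list, and in a gene-poor stretch of X 60891 bp from CG14621 (X 22383185 to 22383335), in neither list.

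Gained sites at MSL2 peaks without a FLAG CLAMP peak had the highest X share of the 4 classes. X held 40 of these 56 (71.4%, 57.8 to 82.7), against 100 of 213 at neither list (46.9%, 40.1 to 53.9), and these intervals do not overlap. With reciprocal overlap of 50% the shares were 64.6% (49.5 to 77.8) and 51.4% (45.0 to 57.8), and the intervals overlap. The X shares were 19 of 35 (54.3%, 36.6 to 71.2) at both lists and 41 of 84 (48.8%, 37.7 to 60.0) at the FLAG list only. Of all MSL2 peaks of the mixture on arms, 203 of 454 were on X (44.7%, 40.1 to 49.4). With only the first 50% of every list in file order, the X shares were 41.2% at MSL2 only (7 of 17, 18.4 to 67.1) and 42.2% at neither (43 of 102, 32.4 to 52.3). The difference was not seen there, where the first class had only 17 peaks and a wide interval. Nearly all 56 lay in gene bodies, 53 (94.6%, 85.1 to 98.9).

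**Figure D2:**
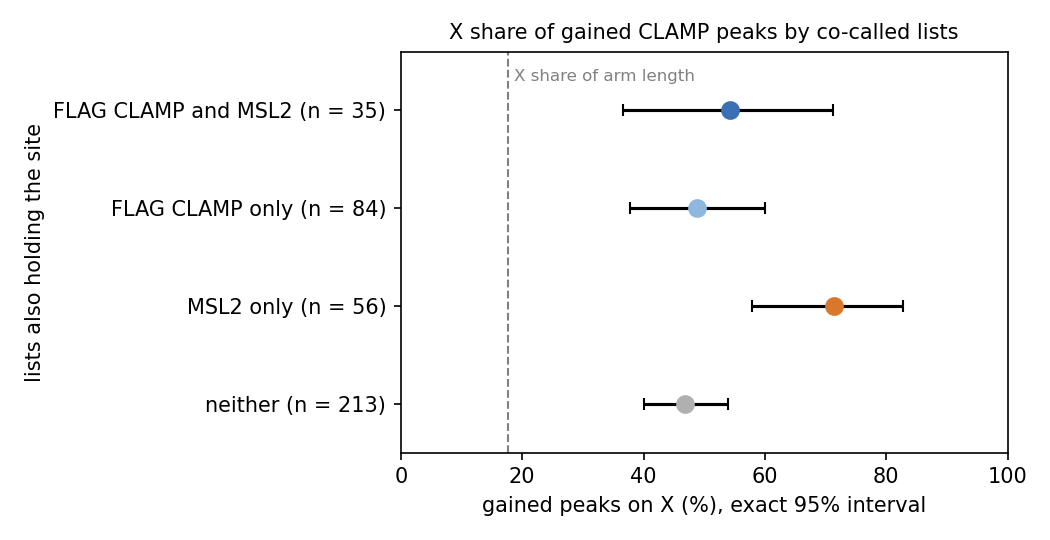
Share (%) of gained CLAMP peaks on X with exact 95% intervals, by whether the site was also in the FLAG CLAMP list, in the MSL2 list of the mixture (MSL2), in both or in neither; the dashed line is the X share of arm length, 17.6%. The class with MSL2 only lies highest at 71.4%, with an interval above that of the class with neither, a separation lost with reciprocal overlap of 50% (64.6% and 51.4%).

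The gained site in roX2 belonged to the class at MSL2 only. The roX2 gene makes 1 of the noncoding RNAs of the dosage compensation complex and holds a classic entry site. Its gained peak (X 11580230 to 11580380) was also an MSL2 peak with MSL2 alone and in the mixture, was in no list of CLAMP without MSL2, and was not an MSL2 peak with the mutant. The sister gene roX1 had no gained peak in or within 2 kb. Of the other genes of the complex and its partners, msl-1, msl-3, mof, mle, JIL-1 and Clamp had none.

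The members of the class differed in which other MSL2 lists held them. In 25 of the 56, MSL2 was called in the mixture with CLAMP and neither alone nor with the CLAMP mutant. These included cac, the calcium channel of transmitter release (X 11981964 to 11982114), Raf, a kinase of growth factor signalling (X 2343582 to 2343732), Nup153, a nuclear pore gene (X 16608033 to 16608183), 2 in mamo and 2 in Sh. In 19, MSL2 was called in all 3 of its lists, among them the gene Tomosyn, which restrains vesicle release (X 12649464 to 12649614), hiw, a synaptic ubiquitin ligase (X 15052062 to 15052212), Dop2R, a dopamine receptor (X 20024579 to 20024729), psq (2R 10583252 to 10583402) and pros, a homeodomain factor of neural precursors (3R 11372802 to 11372952). In 10 it was called alone but not with the mutant, as at roX2 and Pits (X 12583030 to 12583180). MSL2 peaks that were present without CLAMP were gained more often than those that appeared with it: 51 of 122 (41.8%, 32.9 to 51.1) against 40 of 344 (11.6%, 8.44 to 15.5), and the intervals do not overlap.

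The gene msl-2 itself held 3 gained peaks (2L 3463342 to 3463492, 3463773 to 3463923 and 3465142 to 3465292). All 3 were at peaks of MSL2 alone, the first was also at an MSL2 peak of the mixture, and none was at a FLAG CLAMP peak. The gene encodes one of the added proteins, and the part that its DNA had in these peaks was not tested. Clamp, the gene of the other protein, held 0 gained, kept or lost peaks.

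Where peaks of 151 bp overlapped, which limits the distance of their centres, these distances were measured. The centre of a gained peak lay a median of 24.0 bp from that of the FLAG CLAMP peak it overlapped (n = 119, quartiles 5.00 and 59.0 bp). For the MSL2 peak of the mixture the median was 20.0 bp (n = 91, quartiles 2.50 and 52.5 bp), and for kept peaks and their CLAMP-alone partners 15.0 bp (n = 41). In 83 of 119 and 67 of 91 cases the centres lay within 50 bp. Gained peaks beside a peak of another list are not in these counts: 16 that did not overlap an MSL2 peak of the mixture lay within 500 bp of one, and 19 lay so near a FLAG CLAMP peak.

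**Figure D3:**
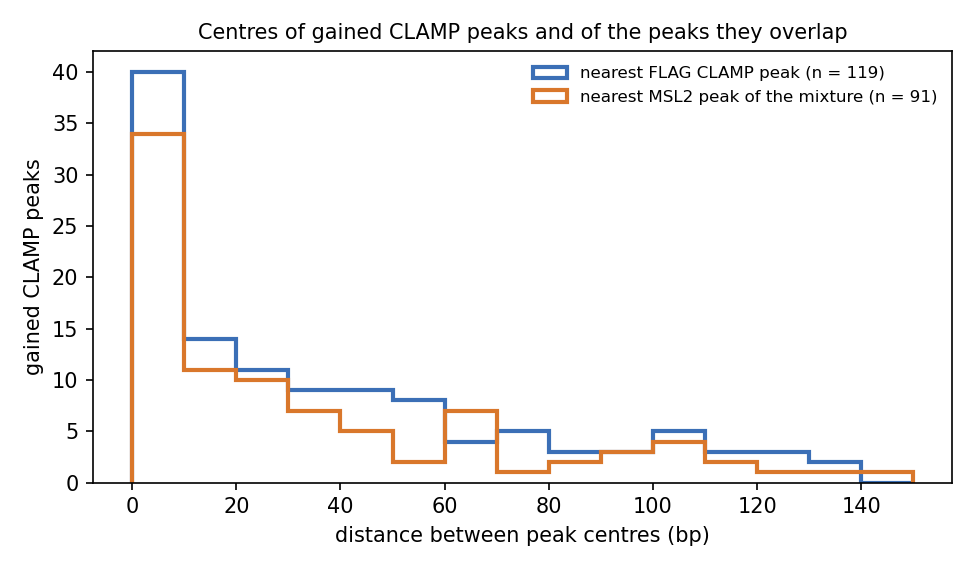
Distance in bp between the centre of each gained CLAMP peak and that of the overlapping FLAG CLAMP peak (119 sites) or MSL2 peak of the mixture (91 sites), as counts of gained peaks in bins of 10 bp. Both distributions are highest in the first bin, with medians of 24.0 and 20.0 bp.

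The make-up of the gained sites changed along the deposited list. It was divided into 4 parts of equal length. In the first part 64.2% of the gained peaks were at FLAG CLAMP peaks (52 of 81, 52.8 to 74.6), and in the following parts 35.0%, 22.0% and 8.65% (9 of 104, 4.03 to 15.8). MSL2 peaks of the mixture lay at 43.2%, 23.3%, 19.0% and 12.5%. The X share went the other way, from 27.2% (22 of 81, 17.9 to 38.2) through 40.8% and 61.0% to 72.1% (75 of 104, 62.5 to 80.5). The fall of the FLAG share was seen within X, from 13 of 22 in the first part to 9 of 75 in the last, and within autosomes, from 39 of 59 to 0 of 29 (up to 10.3%). Sites at neither list rose from 17 of 81 to 82 of 104. The class at MSL2 peaks only took 14.8%, 13.6%, 17.0% and 12.5% of the parts in turn.

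Cutting the list with MSL2 to its first 74 peaks, the length of the CLAMP-alone list, changed the picture. There, 53 gained peaks remained, of which 77.4% were at FLAG CLAMP peaks (63.8 to 87.7) and 18.9% on X (9.44 to 32.0), close to the X share of length. The excess on X thus rested on peaks further down the list, and whether it depends on the threshold of the caller was not tested.

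**Figure D4:**
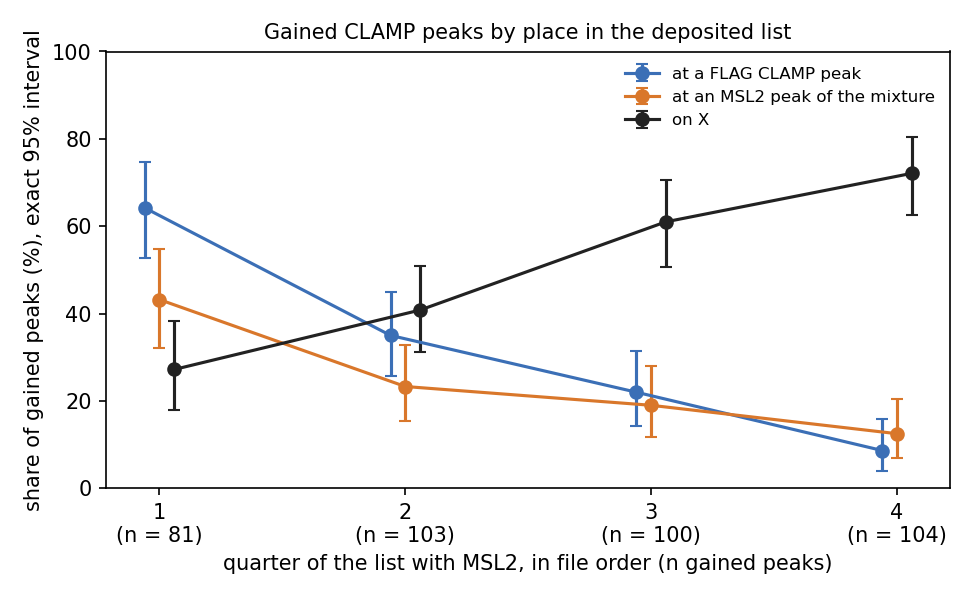
Share (%) of gained CLAMP peaks at a FLAG CLAMP peak, at an MSL2 peak of the mixture and on X, with exact 95% intervals, in 4 equal parts of the list with MSL2 in file order. The first 2 shares fall from 64.2% to 8.65% and from 43.2% to 12.5%, while the X share rises from 27.2% to 72.1%.

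Most of the 213 gained sites at neither list stood late and apart from the peaks of those 2 lists. Of these, 143 were in the last 2 of the 4 parts, with 84 of the 100 on X and 59 of the 113 on autosomes. Their median distance was 50490 bp to a FLAG CLAMP peak and 64733 bp to an MSL2 peak of the mixture, and 20 of the 213 lay within 500 bp of one. They included robo2, an axon guidance receptor (2L 1399664 to 1399814), Plc21C, a phospholipase (2L 348163 to 348313), Wdr62 (2L 1901532 to 1901682), fru, a regulator of male behaviour (3R 18437084 to 18437234), and nej, the CBP acetyltransferase, with 2 peaks (X 9672202 to 9672352 and X 9685108 to 9685258). MSL2 alone was called at 2 of the 213 (0.939%, 0.114 to 3.35), both in msl-2 and early in the list, at places 20 and 69.

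Sites found only by the FLAG antibody besides the gained peak had CLAMP without MSL2, by that antibody. They included ush, a GATA cofactor (2L 490552 to 490702), the related genes Tmtc1 (2L 2701058 to 2701208) and Tmtc2 (2L 941099 to 941249), and a site 263 bp from sob, a zinc finger gene (2L 3581033 to 3581183). The homeobox gene en held another (2R 11527992 to 11528142), as did the calcium channel gene Ca-alpha1T (X 6189523 to 6189673) and the small-conductance potassium channel gene SK (X 5398621 to 5398771). Beside the Ca-alpha1T site, without overlap, lay an MSL2 peak of the mixture 29 bp away and a peak of MSL2 alone 60 bp away. MSL2 alone was called at 1 of these 84 and MSL2 with the mutant at 0, which allows up to 3.57%.

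Gained sites lay mostly inside genes, and long genes held them most often. Gene bodies held 309 of 388 (79.6%, 75.3 to 83.5), where they cover 69.6% of the arms, and 29 of 41 kept peaks (70.7%, 54.5 to 83.9). The other 79 lay a median of 2785 bp from the nearest gene. Of 17807 genes, 257 had a gained peak (1.44%), and 385 had one in or within 2 kb (2.16%). The share was 0.275% of genes under 5000 bp, 1.95% up to 20000 bp, 9.86% up to 50000 bp, 25.4% up to 100000 bp and 40.9% above that. Genes with a gained peak had a median length of 32941 bp, against 1695 bp for all genes. On X 4.73% of genes had one, and on autosomes 0.861%.

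Several genes held gained peaks at many separate places. Such peaks are calls of the CLAMP antibody, and at some of them the FLAG antibody had found CLAMP without MSL2. Of the 257 genes, 22 had at least 3 gained peaks and 28 had 2. Of the 22, 20 were protein coding, 14 of them on X. These counts are not adjusted for gene length or arm. The 3 genes with most peaks, mgl, mamo and Sh, span 141634, 144412 and 138941 bp, while msl-2, with 3 peaks, spans 3895 bp. X as a whole held 8.50 gained peaks per Mb. Most genes with a gained peak, 239, had no kept or lost peak. The CLAMP-alone list had only 74 peaks for 17807 genes, so most genes of any kind lack one. The 239 is therefore not a trait of the genes with a gained peak.

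The gene with most gained peaks was mgl, which encodes Megalin, an endocytic receptor of the LDL receptor family. Its 7 peaks spread from X 9380318 to 9495891. Those at X 9433472 to 9433622 and X 9454060 to 9454210 were FLAG CLAMP sites, the other 5 were in neither list, and none was an MSL2 site. The gene also held 1 lost peak (X 9408613 to 9408763).

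The zinc finger gene mamo and the Shaker potassium channel gene Sh held 6 each, of 3 or 4 classes. In mamo, 1 was found with both antibodies (X 13967756 to 13967906), 2 with MSL2 only (X 13889656 to 13889806 and X 13964017 to 13964167), 1 with FLAG only (X 13927681 to 13927831) and 2 with neither. In Sh, 1 was found with both (X 18035899 to 18036049), 3 with MSL2 only (X 17963471 to 17963621, X 17997305 to 17997455 and X 18023722 to 18023872) and 2 with neither. The peak at X 18023722 to 18023872 only reached the edge of the nested gene CG6867 (X 18023870 to 18028261). It lay 2 bp from a FLAG CLAMP peak, without overlap. Both mamo and Sh also held 1 kept peak, at X 13882439 to 13882589 and X 18050879 to 18051029.

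On the autosomes Eip75B, an ecdysone-induced nuclear receptor, gained 5 sites between 3L 17966364 and 18037976, of which 1 was a FLAG CLAMP site (3L 17995554 to 17995704). The homeobox gene hth gained 4, of which 1 was an MSL2 site (3R 10516953 to 10517103). The nicotinic receptor gene nAChRalpha6 gained 3 between 2L 9803350 and 9879985, all in neither list. The splicing regulator mbl and twi, the mesoderm factor Twist, gained 3 each. None of these 5 genes had a kept or lost peak.

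Further genes on X were kirre, a cell adhesion gene of muscle fusion that spans 394149 bp, with 4, and Mur2B (145235 bp) with 4. Of the 4 in Mur2B, 3 lie in br, the ecdysone-induced Broad factor nested in it. The gene rg, a protein kinase A anchor, shares its 3 with CG15465, which has the same boundaries in the annotation. In rdgA all 3 were MSL2 sites and 2 of them FLAG CLAMP sites too. In Neto all 3 were FLAG CLAMP sites and 1 was also an MSL2 site. The innexin gene shakB gained 3 in neither list.

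**Figure D5:**
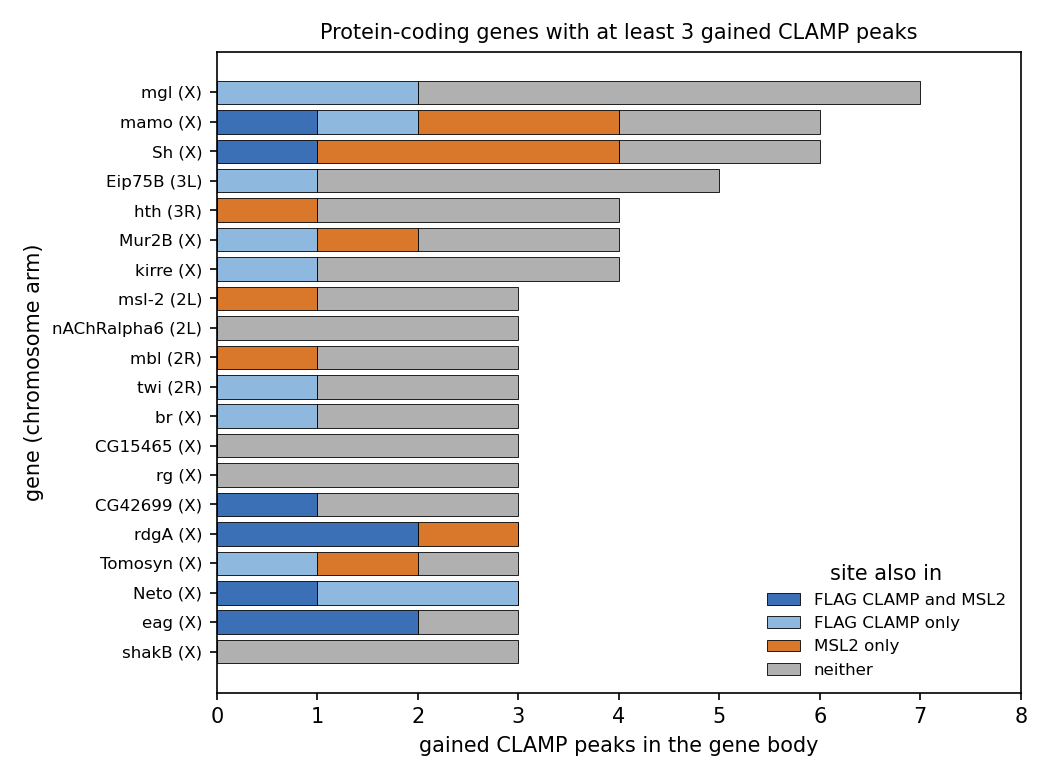
Number of gained CLAMP peaks in the gene body of each of the 20 protein-coding genes with at least 3, coloured by whether the site was also in the FLAG CLAMP list, the MSL2 list of the mixture, both or neither. The gene mgl has 7, mamo and Sh have 6, and rdgA has only sites shared with MSL2. Counts are not adjusted for gene length.

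Gained peaks also stood close together at some loci. Of the 388, 33 lay within 1 kb of another gained peak and 97 within 10 kb, 61 of them on X. The median distance to the next gained peak was 29226 bp on X and 142238 bp on autosomes. Chaining at 10000 bp gave 10 groups of at least 3 gained peaks, 8 of them on X, with 31 peaks in all. The group of 4 was in and beside oc, the head homeobox gene orthodenticle (X 8636463 to 8657423, spanning 20961 bp). The closest of the groups spanned 990 bp in CG42699 (X 5788317 to 5789306), in which the middle peak was in the FLAG and MSL2 lists and the outer ones in neither. Another lay at rdgA and its neighbours Moe, which encodes moesin, and e(r) (X 8897344 to 8908461).

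Among lists of genes by function, transcription factor genes had the most gained peaks in number, in the longest list apart from the histone genes. The share of genes with a gained peak was higher for RNA-binding protein genes (37.0%). The lists are selections of named genes, chosen with earlier results known. Of 79 transcription factor genes listed, 21 had a gained peak in the gene body (26.6%), with 42 peaks, against 1.44% of all genes. The listed genes were long, with a median of 23485 bp, and 14 of the 22 of at least 50000 bp had one, where 29.8% of all genes of that length did. On X these were br, bi, a T-box factor, Cph, oc, Sp1, mamo, the neuronal POU factor acj6 (X 15374290 to 15374440), and OdsH (X 17802574 to 17802724). On autosomes they included Antp, the Antennapedia homeotic gene, with 2 (3R 6988534 to 6988684 and 3R 6991891 to 6992041), grh, an epidermal factor (2R 17814012 to 17814162), and Eip74EF, an ecdysone-induced factor (3L 17608442 to 17608592).

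Of 27 RNA-binding protein genes 10 had a gained peak (37.0%, against 1.44% of all genes), with 12 peaks and a median length of 37561 bp. Of the 12 with at least 50000 bp, 8 had one, where 29.8% of all genes of that length did. Per Mb of gene body the list had 6.22 gained peaks, against 14.5 for the transcription factor genes and 3.28 for all genes. The 10 genes were the bruno family genes bru1, bru2 and bru3, Rbp6 (3L 17119022 to 17119172), Rbfox1 (3L 10508030 to 10508180), mub, pum, which encodes the translational repressor Pumilio, with 2 (3R 9105779 to 9105929 and 3R 9184578 to 9184728), shep with 2, Imp (X 10819260 to 10819410) and the ELAV family gene fne (X 12926266 to 12926416).

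Channel and receptor genes had gained sites in a minority, beside 1.44% of all genes, 4.73% of X genes and 29.8% of genes of at least 50000 bp. Of 19 potassium channel genes 3 did (15.8%), namely Sh, eag and SK, all on X and with 10 peaks. Of 13 sodium and calcium channel genes 3 did (23.1%): cac, Ca-alpha1T with 2, and stj, an auxiliary calcium channel subunit (2R 13808222 to 13808372). The sodium channel gene para had none, and held a kept peak. Of 37 transmitter receptor genes 3 did (8.11%): nAChRalpha6, Dop2R with 2, and Rdl, a GABA receptor (3L 9168356 to 9168506). Receptor genes of at least 50000 bp had one in 2 of 7, potassium channel genes of that length in 3 of 6, and sodium and calcium channel genes in 2 of 4.

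Of 45 synapse and axon guidance genes, with a median length of 40368 bp, 9 had gained sites (20.0%), and of the 17 of at least 50000 bp 7 did. The 9 included kirre, Tomosyn with 3, Ten-a, a teneurin (X 12076781 to 12076931), caps (3L 13236871 to 13237021) and side (3R 27426115 to 27426265). Of 55 signalling genes, with a median length of 20472 bp, 7 did (12.7%), and of the 10 of at least 50000 bp 5 did. The share of all genes from 20000 to 50000 bp was 9.86%, and of those of at least 50000 bp 29.8%. Of the 7, 6 were on X: dnc, the cAMP phosphodiesterase, with 2 (X 3294715 to 3294865 and X 3326777 to 3326927), norpA, rdgA, Pde9, kek5 and dome, the JAK/STAT receptor (X 19683110 to 19683260). Outside X only fz2, a Wnt receptor, was among them (3L 19178314 to 19178464).

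Of 31 genes listed for promoters known for GA repeats, 5 had a gained peak in the gene body (16.1%, against 1.44% of all genes). These were en, Eip74EF, Eip75B, Antp and hth, and 4 of these 5 are among the 5 listed genes of at least 50000 bp. Of all genes of that length 29.8% had one. Whether the peaks lay at the promoters was not tested. Listed heat shock genes had none. The replication-dependent histone genes, whose promoters CLAMP is known to bind in cells, had a gained peak in 0 of 111, which allows up to 2.70%. They have a median length of 529 bp, and of all genes under 5000 bp 0.275% had a gained peak, so the count of 0 is not apart from that of other short genes. The same holds for the listed heat shock genes, which are under 5000 bp. The histone genes are near-identical repeats, where reads may not have been placed uniquely, and their coverage was not measured.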

How the data were processed

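ChIP-seq peak lists of in vitro chromatin were used, 1 list per group merged over its libraries. Per the file headers, HOMER findPeaks was run in factor style against merged negative-control reads for each antibody. A peak had to exceed these 10-fold, and its local region of 10000 bp 4-fold. Per the submitters' processing notes the tools were Bowtie2 2.2.9, SAMtools 1.9 and HOMER 4.9, with build dm6. The deposited score is 1 in every line and carries no measurement, and the deposited start and end columns give other values (positions) only. Tag numbers come from the file headers.

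Starts were made 1-based. Overlap used at least 1 bp, checked on simulated lists (40 of 40 planted pairs recovered). Shares have Clopper-Pearson 95% intervals; a 0 is given as 3 counts of the total. Gene bodies came from a RefSeq table of Release 6 plus ISO1 MT, without strand, exons or sequence, so promoters, GA repeats and sequences are not analysed here. The listed symbols nos, pasilla, Dl and argos did not match the table and were not used.

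The members and lists were chosen with earlier results of these data known. Planned for naming were peaks in or within 2 kb of listed genes and 6 peaks of each class. Also planned were 8 kept and 8 lost peaks by position (all widths being equal) and genes with at least 3 gained peaks. The first 8 gained in file order and the pairs nearest the overlap limit were planned too. Some planned peaks are not named above, among them lost peaks in CG12567, Strn-Mlck and Myo81F. Other peaks, mainly in the class of MSL2 peaks only, the kept and lost peaks and nej, were chosen after their values were seen. Python 3.11.15, numpy 2.4.6, pandas 2.3.3, scipy 1.17.1 and matplotlib 3.10.9 were used.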

Additional observations from a re-analysis of the deposited data

How the results depend on the processing

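Of 92 values recomputed over 9 alternatives, 65 stayed within 1.5 times (counts) or inside the reported interval (shares), and 27 moved. Reciprocal 50% overlap moved the share of gained peaks at FLAG CLAMP peaks to 25.4%, and the X shares at MSL2 only and at neither then had overlapping intervals (64.6%, 49.5 to 77.8, and 51.4%, 45.0 to 57.8). Centres within 500 bp, chromosome arms only, leaving out peaks in msl-2 or Clamp, and merging gained peaks within 500 bp moved none. With the list with MSL2 cut to 74 peaks in file order, 28.4% of CLAMP-alone peaks were kept, and 53 peaks were gained in 41 genes. Of these 77.4% were at FLAG CLAMP, 45.3% at MSL2 of the mixture, 34.0% at MSL2 alone, 22.6% away from every list without MSL2 and 18.9% on X. With the first 50% of every list, 75.7% were kept and 186 gained in 136 genes, with 36.0% at FLAG CLAMP, 63.4% away from lists without MSL2 and 35.5% on X. On X alone (added after the data were examined, as was the autosome split) 200 were gained in 128 genes, 29.5% at MSL2 of the mixture and 85.0% in gene bodies. On autosome arms alone 69.2% were kept and 188 gained in 129 genes, 17.0% at MSL2 of the mixture and 73.9% in gene bodies. Counts fall in these shorter lists by construction, and the cause of the other moves was not tested. No paired analysis was possible because each list is merged over its replicates, which also left no replicate to leave out. A stricter score was not run, since the score does not vary, nor were promoter windows and GA repeats. Depth differs 2.21-fold between the lists and limits what a lost or gained call shows.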

Other observations

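Some gained sites lay in noncoding RNA genes. Of the 257 genes with a gained peak, 20 make a long noncoding or antisense RNA. A pair of sites stood close together in lncRNA:CR44833 (X 5047226 to 5047376 and X 5047884 to 5048034), both MSL2 peaks of the mixture and neither a FLAG CLAMP peak. Another lay in the same RNA gene where it overlaps ovo, a germline zinc finger gene (X 5053019 to 5053169). On 3R the RNA gene iab8 of the bithorax region held 1 (3R 16899833 to 16899983), where MSL2 was called in all 3 of its lists. These genes were named after their values were seen.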
